A study of Homo sapiens with 96 samples.

Results

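Replication-dependent histone mRNAs are made, processed and destroyed by a set of factors of their own, and of the 9 genes described here NPAT, CASP8AP2, SLBP, LSM10, LSM11, CSTF2, ERI1 and UPF1 encode parts of that machinery. The ninth is MIIP. They were chosen by gene symbol, and all 9 were found among the 13469 symbols listed in all 10 expression tables. MIIP, the migration and invasion inhibitory protein, was on the list without an assigned role in histone mRNA and is described last.

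Histone mRNAs of this class carry no poly(A) tail and end in a stem-loop that is bound by SLBP, the stem-loop binding protein, from processing through translation to decay. NPAT, a substrate of cyclin E and its kinase, gathers at the histone gene clusters with CASP8AP2 (also called FLASH), and the transcripts are cut at their 3′ end by the U7 small nuclear ribonucleoprotein, whose particular ring proteins are LSM10 and LSM11, together with a cleavage complex that contains CSTF2. When DNA synthesis stops, UPF1, an RNA helicase, and ERI1, a 3′ exonuclease that binds the same stem-loop, take part in removing the mRNAs.

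The cells were hTERT-RPE1, an established line of human retinal pigment epithelial cells immortalised with telomerase, and no clone was named. Nascent RNA and the matching input were measured in whole cells and in nuclei, each in asynchronous cells and in 5 labelled windows (T0-2, T2-4, T4-6, T6-8 and T8-10) with 2 libraries a group, after synchronisation with 400 uM mimosine for 22 h. In separate experiments a lincRNA (LINC00704, LUCAT1 or MIAT) was knocked down with 130 to 150 pmol of locked nucleic acid GapmeRs, antisense oligonucleotides that direct cleavage of their target RNA. Knockdown and control cells were taken at points S0, S2, S4 and S6 (2 libraries each), also after 400 uM mimosine for 22 h. Others were taken asynchronous (3 knockdown and 2 control libraries). The 3 synchronised knockdowns shared 1 set of controls, and the 3 asynchronous ones shared another. The labels give no unit for windows or points, say nothing of what the control GapmeR was, and do not say that libraries of a group came from separate cultures, so a p-value here reflects how far these libraries scatter, which may be technical. Mimosine is named only for synchronised cells, so S phase and the drug block cannot be told apart where windows are set against asynchronous cells.

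Reads recovered for genes with a deposited length ran from 6.39 to 28.6 M per library in the fraction tables and from 9.11 to 50.5 M in the knockdown tables. Levels are in RPKM, reads per kilobase of the whole gene span and scaled to the library total, so reads in introns count. KRT8 and KRT18, keratins of simple epithelia, were expressed in every table (summed with KRT19 where listed, 6.19 to 84.7 RPKM). KRT19, another such keratin, was listed only in whole-cell nascent RNA, at 0 to 0.255 RPKM. By contrast, the 7 pigment epithelium markers, summed where listed, reached only 0.876 to 5.02 RPKM. Targets of the knockdowns were lower in the knockdown libraries, with LUCAT1 at 0.440 to 0.994 RPKM in synchronised controls against 0.133 to 0.379 RPKM. In asynchronous cells other targeted lincRNAs also differed. MIAT had 0.258, 0.0936 and 0.147 RPKM in LUCAT1 knockdown against 0.393 and 0.357 RPKM in controls. LUCAT1 was higher in LINC00704 knockdown (0.784 to 1.07 against 0.455 and 0.477 RPKM) and in MIAT knockdown (0.670 to 0.834 against 0.452 and 0.478 RPKM). In the remaining asynchronous pairings knockdown libraries lay on both sides of the controls. The cause was not tested. The 2 window series of whole-cell input stood apart from each other: library 1 of each window was higher in LSM11 (2.36 to 3.51 against 0.751 to 1.25 RPKM) and ERI1 (0.648 to 0.844 against 0.218 to 0.325 RPKM) and lower in UPF1 and MIIP. The part of this split in the results was not tested.

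The promoters of NPAT, CASP8AP2 and SLBP are shown as examples. Their levels were lower in window T8-10 than in T0-2 in all 4 tables, as were those of LSM11, which is not shown. Each line holds the 250 bases before the RefSeq start in the GRCh38.p14 build, read 5′ to 3′ on the gene's strand: NPAT at chr11:108222639-108222888 on the minus strand, CASP8AP2 at chr6:89829630-89829879 on the plus strand and SLBP at chr4:1712320-1712569 on the minus strand. Capitals mark CCAAT boxes (CCAAT or ATTGG on the opposite strand) and E2F-type letters (TTTCCCGC, TTTGGCGC, TTTCGCGC, TTTGCCGC and the shorter TTCCCGC and TTGGCGC, on both strands, with overlaps allowed).
NPAT: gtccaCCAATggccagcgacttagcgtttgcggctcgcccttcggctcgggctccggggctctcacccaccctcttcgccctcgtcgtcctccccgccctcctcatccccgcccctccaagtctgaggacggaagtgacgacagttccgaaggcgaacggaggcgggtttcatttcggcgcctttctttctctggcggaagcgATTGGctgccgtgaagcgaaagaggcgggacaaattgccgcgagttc
CASP8AP2: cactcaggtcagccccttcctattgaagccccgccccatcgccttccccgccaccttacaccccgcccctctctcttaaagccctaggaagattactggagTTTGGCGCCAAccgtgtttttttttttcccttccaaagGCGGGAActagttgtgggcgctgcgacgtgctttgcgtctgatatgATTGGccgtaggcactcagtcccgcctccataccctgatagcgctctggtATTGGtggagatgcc
SLBP: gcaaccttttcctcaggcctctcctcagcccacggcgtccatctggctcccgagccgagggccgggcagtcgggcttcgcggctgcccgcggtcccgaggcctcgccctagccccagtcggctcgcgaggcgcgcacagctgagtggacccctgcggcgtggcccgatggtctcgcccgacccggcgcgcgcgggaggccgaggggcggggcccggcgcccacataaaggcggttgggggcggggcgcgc
CASP8AP2 held TTTGGCGC, which starts 149 bases before the start of the gene and overlaps 2 of its 3 matches to the shorter letters. It was 1 of 8 members with an 8-letter match, which 2.8% of 27305 promoters of this length held, and the shorter letters were in 7.9%. NPAT held CCAAT boxes 245 and 47 bases before its start, and CCAAT was found in 5 of the 8 members and in 33.0% of all promoters. The SLBP, LSM11 and CSTF2 promoters held neither set of letters. The 8 promoters came from the RefSeq table, and ERI1 is named only.

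Per kilobase of gene span the members lay at low levels, with medians by table that put UPF1 or SLBP first. UPF1 ranked first in the LINC00704 synchronised table at a median of 3.91 RPKM (2.85 to 6.10 over 16 libraries), and SLBP followed at 2.89 RPKM (2.39 to 3.68). ERI1 was the lowest there at 0.328 RPKM (0.204 to 0.455), in a gene of 114600 bp. UPF1 and SLBP ranges overlapped, so their order rests on the medians.

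In the windows after synchronisation, the transcripts of NPAT, CASP8AP2, SLBP and LSM11 were lower in T8-10 than in T0-2, and MIIP was higher. The differences were of one sign in all 8 same-numbered pairs of libraries (4 tables with 2 numbers each). The tables may share cultures, so the pairs are not independent. Replicate numbers were shown to pair the libraries only in nuclear input. How many of all genes kept the same sign over the 8 pairs was not computed. In limma fits without pairing, 61.6%, 58.1%, 62.3% and 63.6% of all genes were higher in T8-10. The order is whole-cell nascent, whole-cell input, nuclear nascent and nuclear input. LSM10 was also higher in 8 of 8 pairs, by as little as 0.0023. ERI1 was lower in 4 of 4 pairs of the whole-cell tables. In the nuclear tables it lay below the expression minimum and was left out of these pairs. There ERI1 was higher in T8-10 than in T0-2 in library 2 of nuclear input (0.325 against 0.303 RPKM) and lower in the other nuclear pairs. Over the 8 pairs the differences in log2(RPKM + 0.25) ran from -1.10 to -0.19 for NPAT and from -0.66 to -0.32 for CASP8AP2. They ran from -1.14 to -0.15 for SLBP and from -0.90 to -0.39 for LSM11. In limma fits without pairing no member passed in any of the 4 tables, where 0% to 0.415% of all genes did. In nuclear input, where replicate numbers paired the libraries, 5 of 8 members passed once the number was a block, as did 22.2% of all genes. In bulk RNA, fewer cells of a kind and less RNA per cell cannot be told apart.

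**Figure D1:**
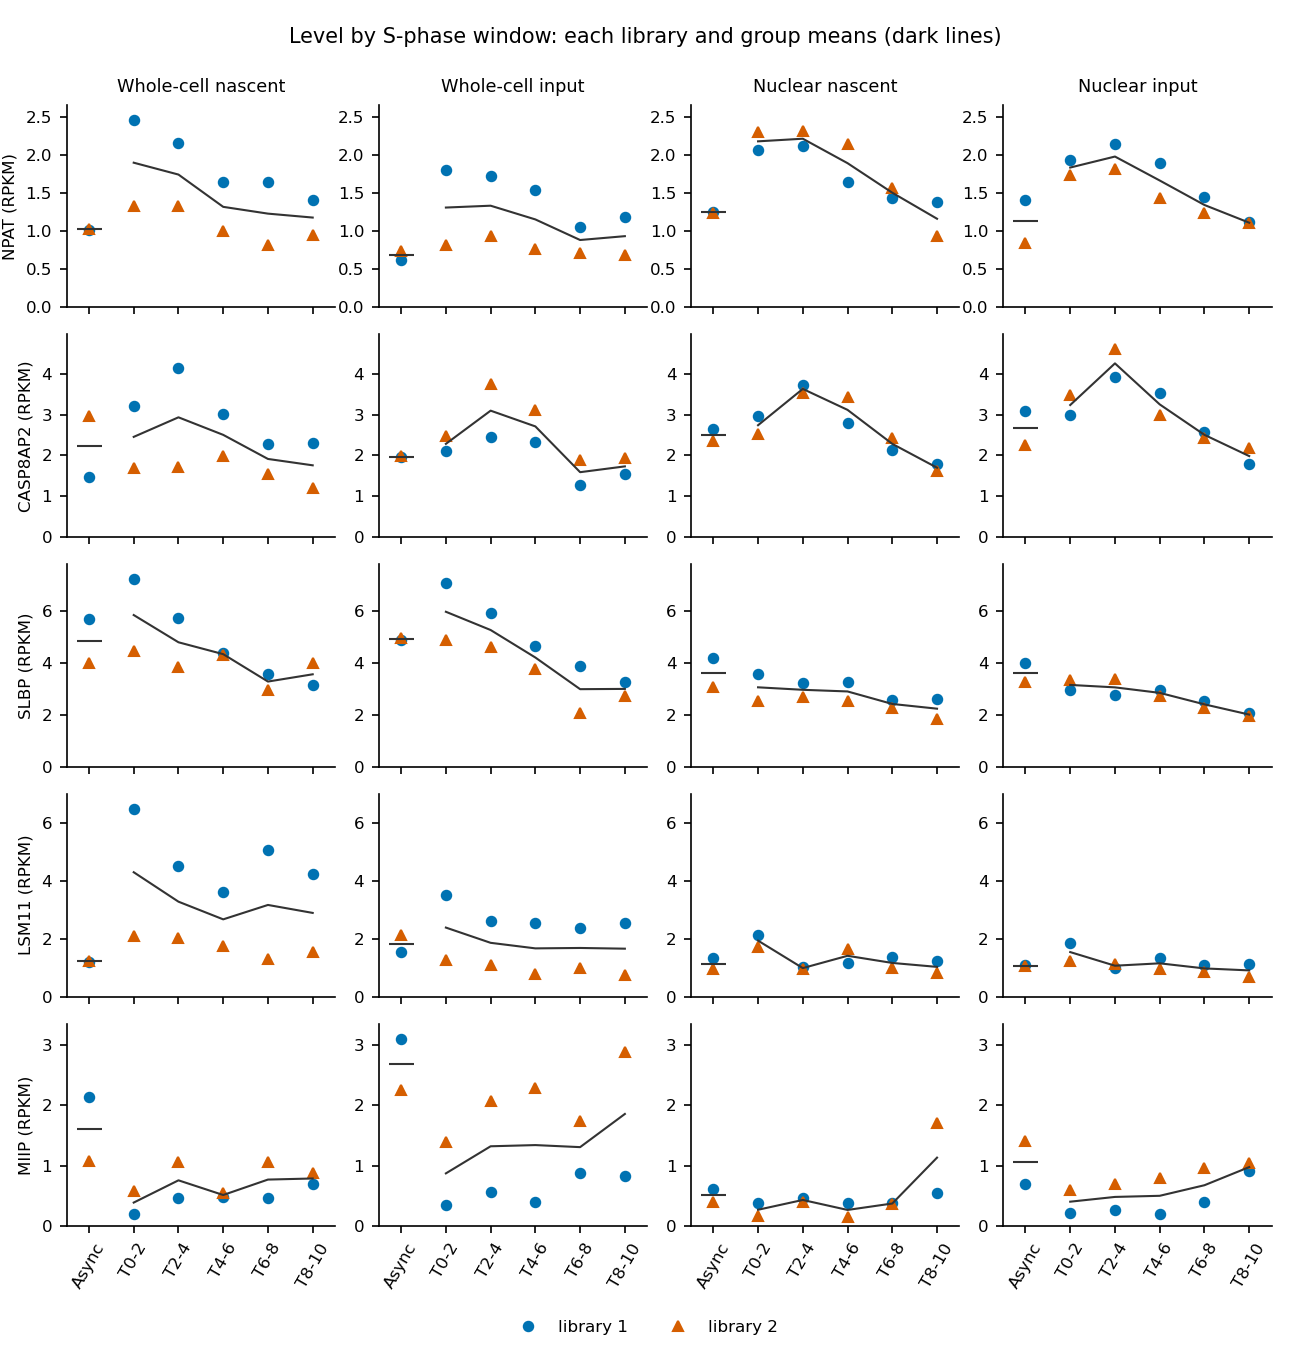
RPKM of NPAT, CASP8AP2, SLBP, LSM11 and MIIP (y axes, 1 row each) in asynchronous cells and the 5 windows (x axes) in the 4 fraction tables (columns). Circles and triangles are the 2 libraries of each group and dark lines the group means. In nuclear input NPAT stood between 1.74 and 1.93 RPKM in T0-2 and between 1.10 and 1.12 RPKM in T8-10.

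NPAT, the coactivator of histone gene transcription, stood at 1.93 and 1.74 RPKM in nuclear input of T0-2, 2.14 and 1.82 RPKM in T2-4, 1.90 and 1.44 RPKM in T4-6, 1.45 and 1.24 RPKM in T6-8 and 1.12 and 1.10 RPKM in T8-10. Asynchronous cells had 1.41 and 0.852 RPKM. Both T8-10 libraries lay below both T0-2 libraries, and T0-2 and T2-4 overlapped. In nuclear nascent RNA the T0-2 libraries had 2.06 and 2.30 RPKM and the T8-10 libraries 1.39 and 0.945 RPKM, again without overlap. The unpaired fits gave a difference of -0.61 ± 0.22 (SE; limma adjusted p = 0.31) for nuclear input and of -0.80 ± 0.20 (limma adjusted p = 0.11) for the nuclear nascent fraction. With the replicate block in nuclear input NPAT fell by 0.61 ± 0.14 on the log2 scale (limma adjusted p = 0.016), and it rose from asynchronous cells to the mean of the windows by 0.42 ± 0.10 (limma adjusted p = 0.015). The first call was lost without either T0-2 library or without T8-10 replicate 1 (adjusted p up to 0.13), and the second without asynchronous replicate 2 (0.24).

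CASP8AP2, which joins NPAT at the histone loci and also acts in 3′ end processing, had its highest nuclear input levels in T2-4. Nuclear input held 2.98 and 3.49 RPKM in T0-2, 3.91 and 4.59 RPKM in T2-4, 3.52 and 2.98 RPKM in T4-6, 2.58 and 2.43 RPKM in T6-8 and 1.79 and 2.18 RPKM in T8-10. The 2 libraries of T2-4 exceeded all others of this table, asynchronous cells (3.08 and 2.24 RPKM) included. With the replicate block the windows differed (range of window means 1.01 on the log2 scale, limma F test adjusted p = 0.033) and CASP8AP2 fell by 0.64 ± 0.17 from T0-2 to T8-10 (limma adjusted p = 0.032). Without the block the same difference had an adjusted p of 0.27 in limma. Leaving out any one window library ended the F test call (adjusted p up to 0.12), and leaving out any library of T0-2 or T8-10 ended the call of the difference (up to 0.21). In nuclear nascent RNA T2-4 again held the highest 2 libraries (3.71 and 3.54 RPKM) and T8-10 the lowest 2 (1.78 and 1.62 RPKM), a difference from T0-2 of -0.61 ± 0.19 (limma adjusted p = 0.14).

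SLBP, whose protein is the stem-loop binder, stood at 2.95 and 3.35 RPKM in nuclear input of T0-2, 2.75 and 3.37 RPKM in T2-4, 2.97 and 2.73 RPKM in T4-6, 2.55 and 2.26 RPKM in T6-8 and 2.06 and 1.97 RPKM in T8-10. The T8-10 libraries were the lowest of the table, and asynchronous cells had 3.99 and 3.25 RPKM. Whole-cell input held 7.07 and 4.87 RPKM in T0-2 and 3.27 and 2.73 RPKM in T8-10, without overlap, but its lowest library was in T6-8 (2.09 RPKM). With the replicate block SLBP fell by 0.59 ± 0.14 in nuclear input (limma adjusted p = 0.023; unpaired 0.26), and it fell by 0.41 ± 0.11 from asynchronous cells to the windows (limma adjusted p = 0.022). The first call was lost without any library of T0-2 or T8-10 (adjusted p up to 0.13) and the second without asynchronous replicate 1 (0.22).

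**Figure D2:**
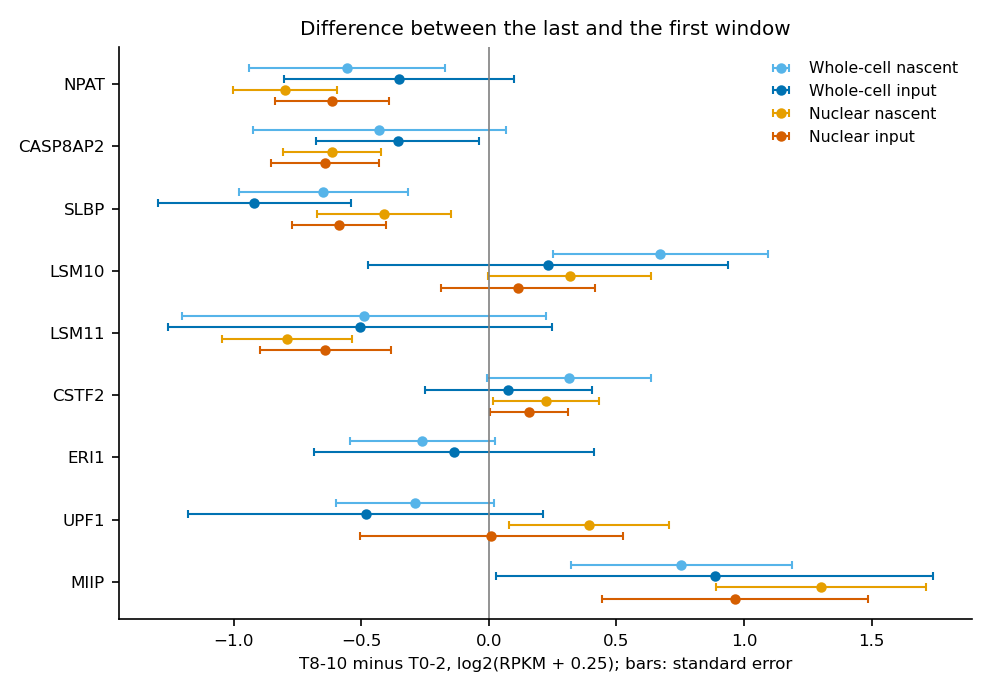
Difference of T8-10 from T0-2 in log2(RPKM + 0.25) (x axis) for each member (y axis), with a colour for each of the 4 tables and bars of 1 SE. NPAT, CASP8AP2, SLBP and LSM11 lie below 0 and MIIP above 0 in all 4 tables, and none of these unpaired differences passed the adjusted threshold.

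LSM11, a ring protein of the U7 particle, had 1.84 and 1.23 RPKM in nuclear input of T0-2 and 1.13 and 0.671 RPKM in T8-10. In whole-cell nascent RNA library 1 was above library 2 in every window, at 6.48 and 2.10 RPKM in T0-2 and 4.23 and 1.54 RPKM in T8-10, against 1.19 and 1.23 RPKM in asynchronous cells. In nuclear input the block gave a fall of 0.64 ± 0.17 (limma adjusted p = 0.028; unpaired 0.36), which was lost without any library of T0-2 or T8-10 (up to 0.18). Its partner LSM10 lay between 0.335 and 0.765 RPKM in nuclear input, with 0.335 and 0.619 RPKM in T0-2 and 0.337 and 0.765 RPKM in T8-10. That difference of 0.12 ± 0.16 with the block did not pass the test (limma adjusted p = 0.64), and it was -0.01 after quantile normalization.

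CSTF2, the RNA-binding subunit of the cleavage stimulation factor, had 1.52 and 1.53 RPKM in asynchronous nuclear input and 1.03 to 1.43 RPKM in the windows, all 10 window libraries lying below both. It fell by 0.28 ± 0.09 with the block (limma adjusted p = 0.034), a call that was lost without any 1 of 7 libraries: both asynchronous and both T4-6 libraries, T2-4 replicate 1, T0-2 replicate 2 or T8-10 replicate 2 (up to 0.18).

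UPF1 in nuclear input was lower in library 1 than in library 2 of every group, at 2.39 and 5.05 RPKM in T0-2 and 3.03 and 4.08 RPKM in T8-10, with a difference of 0.01 ± 0.18 in the block (limma adjusted p = 0.97). Whole-cell input split in the same way, with 2.04 to 3.38 RPKM in library 1 of the 5 windows and 4.57 to 7.94 RPKM in library 2. ERI1 had 0.303 to 0.494 RPKM in nuclear input, below the expression minimum, and was tested only in whole-cell nascent RNA, whole-cell input and the LUCAT1 synchronised table.

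MIIP stood at 0.216 and 0.596 RPKM in nuclear input of T0-2, 0.269 and 0.700 RPKM in T2-4, 0.209 and 0.797 RPKM in T4-6, 0.399 and 0.957 RPKM in T6-8 and 0.906 and 1.05 RPKM in T8-10. The T8-10 libraries lay above those of the other windows, apart from T6-8 library 2, which exceeded T8-10 library 1. With the block MIIP rose by 0.97 ± 0.20 from T0-2 to T8-10 (limma adjusted p = 0.013; unpaired 0.51). Asynchronous cells had 0.702 and 1.41 RPKM, and MIIP fell by 0.65 ± 0.16 from these to the windows as a whole (limma adjusted p = 0.012). In nuclear nascent RNA the T8-10 libraries had 0.557 and 1.71 RPKM against 0.383 and 0.161 RPKM in T0-2, and the lowest library of that table held 24 reads of MIIP. The T8-10 call in nuclear input was lost without either T0-2 library or T8-10 replicate 1 (adjusted p up to 0.085), and the asynchronous call without either asynchronous library (up to 0.095).

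For NPAT, CASP8AP2, SLBP and LSM11 whole-cell RNA also gave lower values in T8-10 than in T0-2, with wider spreads. NPAT had 1.81 and 0.818 RPKM in whole-cell input of T0-2 and 1.18 and 0.689 RPKM in T8-10, and 2.47 and 1.34 RPKM against 1.41 and 0.952 RPKM in whole-cell nascent RNA. Asynchronous cells had 0.624 and 0.748 RPKM and 1.02 and 1.04 RPKM in these tables. NPAT was higher in the mean of the windows than in asynchronous cells in 8 of 8 same-numbered pairs (0.04 to 0.95 on the log2 scale). SLBP and LSM10 were lower in 8 of 8, with the smallest differences at -0.03 and -0.02. Each pair rests on a single asynchronous library, and the pairs are not independent. How many of all genes kept the same sign over these pairs was not computed. LSM10 stood at 4.30 and 3.09 RPKM in asynchronous whole-cell input and at 0.708 and 2.59 RPKM in T0-2, and MIIP at 3.10 and 2.26 RPKM and at 0.353 and 1.39 RPKM. Neither passed the test there, with differences of the windows from asynchronous cells of -1.03 ± 0.55 for LSM10 and -1.08 ± 0.66 for MIIP (limma adjusted p of 0.7 and 0.8).

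In unpaired limma fits 0 members passed in windows against asynchronous cells, where 0.406% of all genes passed in whole-cell nascent RNA, 0.0305% in whole-cell input, 4.5% in nuclear nascent RNA and 4.57% in nuclear input. Likewise 0 members passed among the 5 windows (0% of genes in both whole-cell tables, 0.0204% and 0.218% in the nuclear nascent and nuclear input tables) and 0 passed in T8-10 against T0-2 (0%, 0%, 0.358% and 0.415% in the same order). At an unadjusted p under 0.05 in limma, the members numbered 2, 0, 1 and 3 in windows against asynchronous cells, 0, 0, 2 and 1 among windows and 0, 1, 4 and 4 in T8-10 against T0-2, in the order whole-cell nascent, whole-cell input, nuclear nascent and nuclear input. The shares of all genes at that unadjusted p were 13.7%, 8.8%, 20.3% and 19.1% in windows against asynchronous cells, 3.1%, 1.28%, 9.77% and 6.48% among windows and 7.6%, 3.87%, 21.2% and 12.2% in T8-10 against T0-2. With the block in nuclear input 4 of 8 members passed against asynchronous cells (34.4% of genes; 3 lower, where 18.1% of genes were, and 1 higher, where 16.4% were), 3 of 8 among windows (13.1%; CASP8AP2, NPAT and MIIP) and 5 of 8 in T8-10 against T0-2 (22.2%). In the F test among windows NPAT had a limma adjusted p of 0.036 and MIIP of 0.049, and the calls were lost without any single window library for NPAT and without any single library but T8-10 replicate 2 for MIIP (up to 0.13). Of the 5 members in T8-10 against T0-2, 4 were lower, where 6.75% of all genes were lower, and 1 was higher, where 15.5% were. The median of all genes in T8-10 against T0-2 was 0.12 for nuclear input and 0.15 for the nuclear nascent fraction, and it differed by gene span. Genes of 10 to 30 kb, the class of SLBP, LSM11, CSTF2 and MIIP, had a median of 0.19 in nuclear input, and those of 30 to 100 kb, the class of NPAT, CASP8AP2 and UPF1, had 0.07.

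In nuclear nascent RNA, leaving out T8-10 replicate 1 brought 2 of 8 members past the threshold, with 6.86% of all genes called: NPAT at -1.02 ± 0.21 (limma adjusted p = 0.034) and MIIP at 1.94 ± 0.37 (limma adjusted p = 0.029). Of the other pathway genes, 40 of 49 were tested in nuclear input, and 1 passed there: CCNE1, the cyclin E whose kinase phosphorylates NPAT, fell by 1.73 ± 0.25 from T0-2 to T8-10 (limma adjusted p = 0.034). CCNE2, the second cyclin E gene, fell by 2.25 ± 0.24 in nuclear nascent RNA (limma adjusted p = 0.0099), the 1 of 40 that passed in that comparison. Against asynchronous cells, E2F1 at -0.89 and NCBP2, a cap-binding subunit, at -0.74 were the 2 of 40 lower in nuclear nascent RNA, and SYMPK, the cleavage complex scaffold, was the 1 of 40 lower in whole-cell nascent RNA at -1.08.

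The histone mRNAs themselves took another course. Summed over 47 replication-dependent histone genes, nuclear input held 1108 and 998.1 RPKM in T0-2, 6301 and 5249 RPKM in T4-6 and 4323 and 4056 RPKM in T8-10. Histone genes are counted as a group since their copies share reads. Of 46 tested, 16 were higher in T8-10 than in T0-2 (unpaired limma fit), where 26 of all 9633 genes were. Both T0-2 libraries held less histone RNA than any other library of this table, and both T8-10 libraries, the lowest for SLBP, held more than either asynchronous library (2251 and 2080 RPKM).

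**Figure D3:**
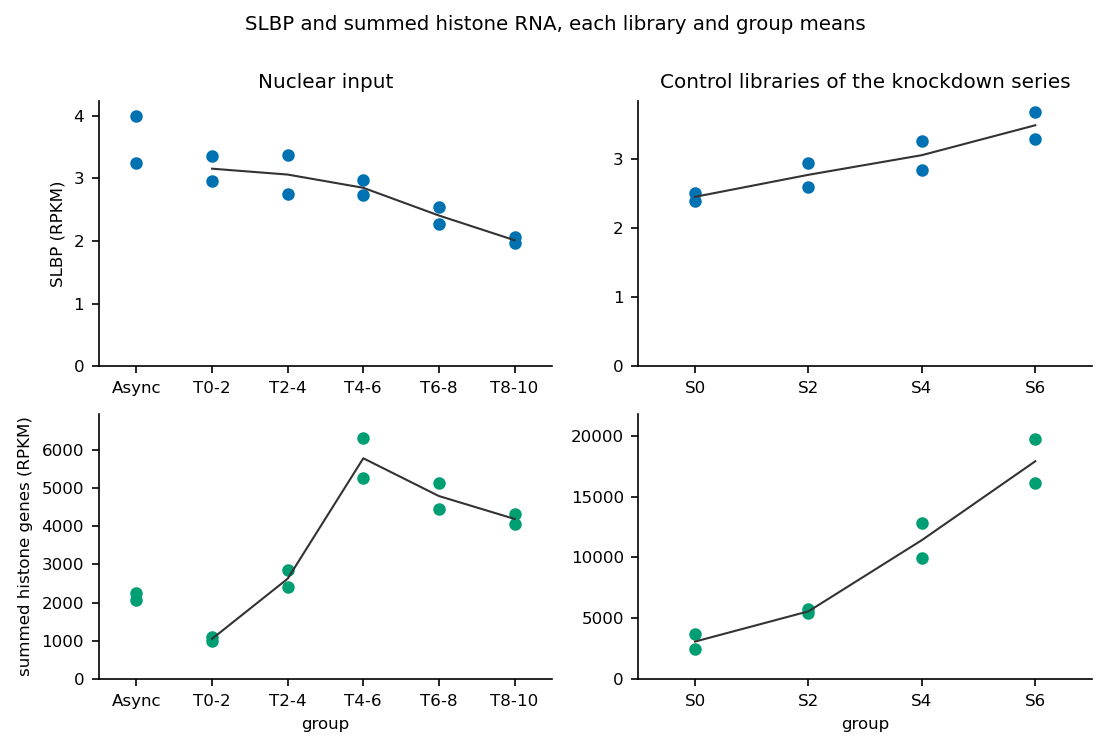
SLBP (upper y axes) and the summed histone genes (lower y axes), both in RPKM, by window in nuclear input (left) and by point in the control libraries of the synchronised knockdowns (right); points are libraries and lines group means. SLBP was 2.06 and 1.97 RPKM in T8-10 against 2.95 and 3.35 RPKM in T0-2, and 3.29 and 3.68 RPKM at S6 against 2.51 and 2.39 RPKM at S0.

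Across the 12 libraries of each table, the genes most like each member among the 8490 compared were found by the mean Pearson correlation over the 4 tables, as a description without a test; points share libraries and depth. NPAT was nearest to ZDHHC13 (0.94), RBBP8 and ATAD2 (both 0.93), and CASP8AP2 to HELLS (0.92), USP37 (0.90) and ZNF718 (0.84). For SLBP the nearest were SFXN1 and ORC1 (both 0.85) and WDR76 (0.83), and for LSM11 FEM1B (0.89), FBXO45 and CD274 (both 0.87). CSTF2 was nearest to STOML2 (0.85), UPF1 to SRRT (0.95) and MIIP to LZTR1 (0.92). Among the members NPAT and LSM11 had 0.68, NPAT and CASP8AP2 0.60, UPF1 and MIIP 0.72 and NPAT and MIIP -0.83.

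Knockdown of LUCAT1 in synchronised cells was accompanied by higher SLBP, and by higher UPF1 and NPAT with less stable calls. SLBP stood at 2.51 and 2.39 RPKM in controls at S0 and at 7.0 and 3.92 RPKM in knockdown cells. At S2 the controls had 2.94 and 2.59 RPKM and the knockdown 7.13 and 4.31 RPKM, at S4 2.84 and 3.26 RPKM against 4.42 and 4.88 RPKM, and at S6 3.29 and 3.68 RPKM against 3.79 and 6.94 RPKM. All 8 knockdown libraries lay above all 8 controls (medians 4.65 and 2.89 RPKM). SLBP rose by 0.77 ± 0.17 on the log2 scale (limma adjusted p = 0.0086), and this call was kept under all 22 alternatives, with adjusted p from 0.0026 to 0.025.

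UPF1, the helicase of histone mRNA decay, had a median of 4.23 RPKM in the controls (3.15 to 5.75) and 6.37 RPKM in the knockdown (5.20 to 11.2), with 5 of 8 knockdown libraries above the highest control. It rose by 0.61 ± 0.19 (limma adjusted p = 0.032). This call held under 12 of 22 alternatives (adjusted p 0.017 to 0.098) and was lost under median scaling and without any 1 of 9 libraries: Control S0 replicate 1, both S2 controls, Control S4 replicate 2, both S6 controls, the first knockdown library at S2, the first at S4 and the second at S6 (first and second here give only the order of the table's columns, which are tied to a group and not to a numbered sample). NPAT had a median of 0.792 RPKM in the controls (0.667 to 1.13) and 1.20 RPKM in the knockdown (0.920 to 1.90), also with 5 of 8 libraries above every control, and it rose by 0.51 ± 0.16 (limma adjusted p = 0.036). Its call held under 9 of 22 alternatives (adjusted p 0.0080 to 0.11) and was lost without filter, under quantile normalization, under median scaling and without any 1 of 10 libraries: Control S0 replicate 2, both S2 controls, Control S4 replicate 1, both S6 controls, and the first knockdown library at S0, the first at S2, the second at S4 and the second at S6.

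**Figure D4:**
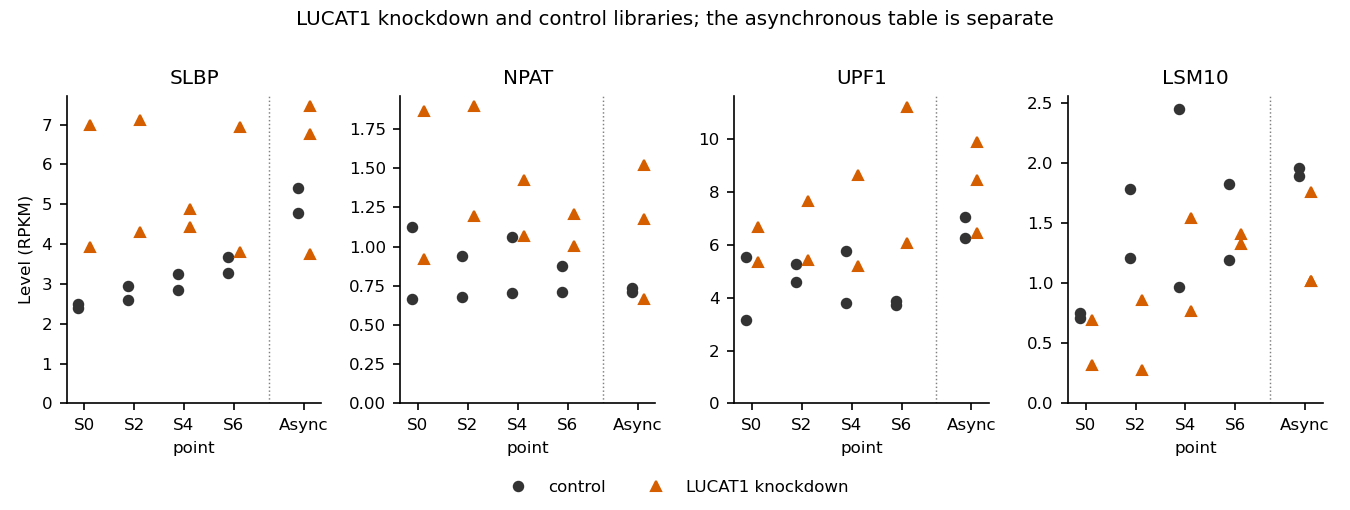
RPKM of SLBP, NPAT, UPF1 and LSM10 (y axes) at points S0 to S6 and, right of the dotted line, in asynchronous cells (x axes), with a circle for each control and a triangle for each LUCAT1 knockdown library. For SLBP the 8 synchronised knockdown libraries (3.79 to 7.13 RPKM) all lie above the 8 controls (2.39 to 3.68 RPKM).

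The 3 members called compare with 27.2% of the 9870 genes tested in this comparison, 1879 higher (19%) and 801 lower, a split that turned to 922 and 1154 under quantile normalization and to 895 and 1390 under median scaling. The members' median difference was 0.36, against 0.11 for all genes. The other 6 did not pass the test, with LSM11 at 0.30 ± 0.11 (limma adjusted p = 0.051), ERI1 at 0.36 ± 0.14 (0.077) and LSM10 at -0.53 ± 0.22 (0.086), and with CSTF2, CASP8AP2 and MIIP at adjusted p of 0.13, 0.16 and 0.37. LSM10 had 0.709 to 2.45 RPKM in the controls and 0.278 to 1.55 RPKM in the knockdown. The effect did not differ by point in any member in limma's F test (0 of 9, 0% of genes, and 0 members at an unadjusted p under 0.05, where 0.395% of genes were). Of the other pathway genes 13 of 40 were higher: SMG1, the kinase that phosphorylates UPF1, by 0.91, NCBP2 by 0.81, the decapping enzyme gene DCP2 by 0.79 and CCNE2 by 0.72 were the largest rises. CSTF1, a subunit of the same cleavage stimulation factor as CSTF2, was lower at -0.42. Summed histone mRNA in these libraries ran from 2449 to 19730 RPKM in controls and from 1720 to 12540 RPKM in the knockdown, and 7 of 48 histone genes tested were lower.

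In asynchronous LUCAT1 knockdown cells 1 of the 3 libraries stood apart. SLBP had 4.79 and 5.40 RPKM in controls and 3.75, 7.46 and 6.76 RPKM in the knockdown, and NPAT 0.735 and 0.713 RPKM against 0.665, 1.52 and 1.17 RPKM. The first library was below the controls and the others above, and its LUCAT1 level was 0.311 RPKM against 0.128 and 0.124 RPKM in the others and 0.469 and 0.495 RPKM in the controls. No member passed in limma (0 of 8 against 0.209% of genes; 0 at an unadjusted p under 0.05, where 22.0% of genes were). Without that library 4 passed, with 48.4% of all genes called: NPAT at 0.70 (limma adjusted p = 0.0098), SLBP at 0.46 (0.032) and UPF1 at 0.44 (0.044) were higher, and LSM10 at -0.78 (0.0037) was lower. UPF1 had 7.05 and 6.27 RPKM in controls against 6.46, 8.45 and 9.89 RPKM, and LSM10 1.96 and 1.90 RPKM against 1.76, 1.02 and 1.02 RPKM. In the authors' deposited table the false discovery rate was under 0.05 for NPAT (0.0067, higher) and LSM10 (0.0071, lower), where 44.6% of its genes were.

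In asynchronous cells with MIAT knockdown, MIAT stood at 0.152, 0.0561 and 0.0766 RPKM against 0.379 and 0.345 RPKM in controls. UPF1, MIIP, CSTF2 and SLBP were lower there, with no overlap between the groups. How many of all genes separated in this way was not computed, and limma called 31.1% of all genes lower. UPF1 stood at 6.8 and 6.05 RPKM in controls and at 4.56, 4.23 and 3.60 RPKM in the knockdown, and it fell by 0.61 ± 0.12 (limma adjusted p = 0.0081). MIIP stood at 2.93 and 2.69 RPKM against 1.84, 2.13 and 1.80 RPKM and fell by 0.49 ± 0.10 (limma adjusted p = 0.0089). CSTF2 had 2.07 and 2.04 RPKM against 1.43, 1.74 and 1.64 RPKM, a fall of 0.32 ± 0.10 (limma adjusted p = 0.039). For SLBP the values were 4.62 and 5.21 RPKM against 3.36, 3.97 and 4.07 RPKM, a fall of 0.35 ± 0.12 (limma adjusted p = 0.045).

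**Figure D5:**
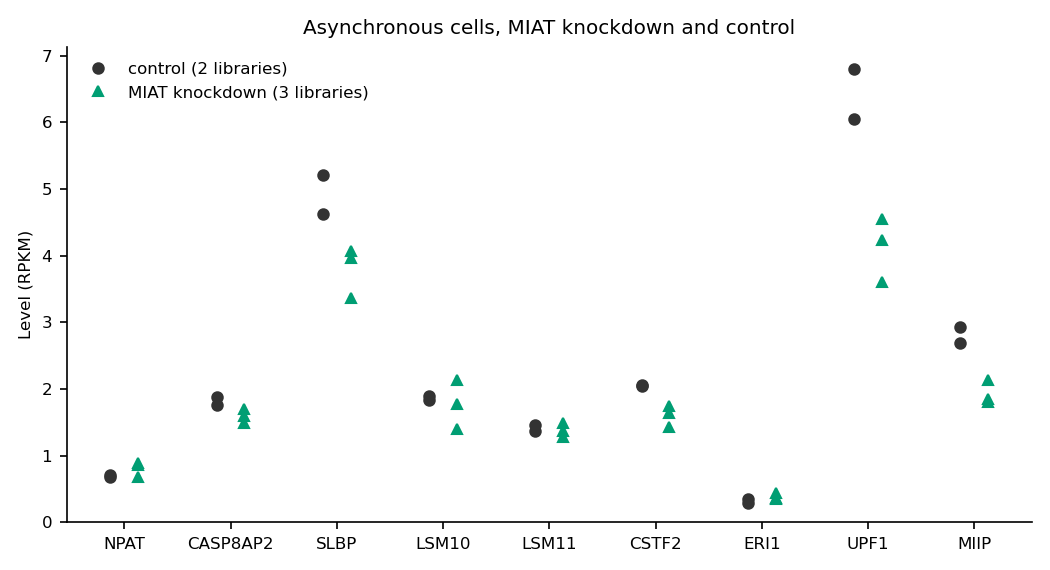
RPKM (y axis) of the 9 members (x axis) in 2 control libraries (circles) and 3 MIAT knockdown libraries (triangles) of asynchronous cells. UPF1, MIIP, CSTF2 and SLBP are lower in all 3 knockdown libraries than in both controls.

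These 4 of 8 members compare with 43.7% of all genes called, and with 31.1% called lower (1155 higher and 2861 lower, or 1358 and 1701 under quantile normalization and 1497 and 2402 under median scaling). The median of all genes was -0.12 and that of the members -0.24. CASP8AP2 was also below both controls in all 3 knockdown libraries but did not pass, at -0.16 ± 0.09 (limma adjusted p = 0.18). Without control replicate 1 no member passed (adjusted p of MIIP 0.080 and of UPF1 0.071), MIIP was kept under the other 11 of 12 alternatives and UPF1 under 10, with the loss under quantile normalization as well. CSTF2 and SLBP were lost without any one of the 5 libraries, without filter and under both scalings, with adjusted p of up to 0.18 and 0.51. In the authors' deposited table the false discovery rate was under 0.05 for 5 members, where 56.8% of its genes were: UPF1 at 2.1e-07, MIIP at 0.00045 and SLBP at 0.047 were lower (log2 fold changes of -0.63, -0.52 and -0.36), and ERI1 at 0.024 and NPAT at 0.026 were higher (0.20 and 0.19). Of the other pathway genes 7 of 39 were lower, led by E2F1 at -1.05, CPSF1 at -0.85 and LSM4 at -0.82, and 3 were higher, SNRPG at 0.50, TUT7 at 0.37 and XRN1 at 0.32. In the same cells 37 of 52 histone genes were lower and 1 higher.

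In asynchronous LINC00704 knockdown cells LSM11 had 1.37 and 1.46 RPKM in controls and 1.87, 1.66 and 2.13 RPKM in the knockdown, all higher. UPF1 was lower in all 3 knockdown libraries, at 5.22, 5.17 and 4.22 RPKM against 6.84 and 6.04 RPKM, and so was LSM10, at 1.45, 1.65 and 1.55 RPKM against 1.90 and 1.83 RPKM. The other members did not separate from the controls, and how many of all genes separated in this way was not computed. The differences were 0.35 ± 0.16 for LSM11 (limma adjusted p = 0.44), -0.39 ± 0.17 for UPF1 (0.43) and -0.23 ± 0.15 for LSM10 (0.58). At an unadjusted p under 0.05 in limma the members numbered 0 of 8, where 12.4% of all genes were. In the authors' deposited table no member had a false discovery rate under 0.05 (lowest UPF1, 0.427), where 7.41% of its genes did.

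In the remaining comparisons no member passed the limma test. LINC00704 knockdown gave 0 of 8 in synchronised cells (0.0212% of genes) and 0 of 8 in asynchronous cells (0.0557%), and MIAT knockdown in synchronised cells gave 0 of 8 (7.63%). At an unadjusted p under 0.05 the members numbered 1, 0 and 0, and the shares of all genes were 16.5%, 12.4% and 24.7%, in the same order. LINC00704 and MIAT knockdown effects did not differ by point past the threshold in limma's F test (0 of 8 members and 0% of genes each, with 0 members at an unadjusted p under 0.05, where 0.392% and 1.15% of genes were). Among control points, fitted in the LINC00704 table, the F test called 0 of 8 (0%), and S6 against S0 called 0 of 8 (0.0741%), with 0 members at an unadjusted p under 0.05 in both, where 5.06% and 9.08% of genes were. The same controls fitted in the LUCAT1 and MIAT tables gave 86 and 95 genes called in S6 against S0 (0.871% and 0.997%) and 0 members in each. SLBP had 2.51 and 2.39 RPKM in controls at S0 and 3.29 and 3.68 RPKM at S6, without overlap and with the later point higher, a difference of 0.47 ± 0.22 (limma adjusted p = 0.57). The sign is opposite to that between T0-2 and T8-10, and the labels do not tie points to windows. In synchronised MIAT knockdown cells the median of SLBP was 2.74 RPKM against 2.89 RPKM in the controls, and in synchronised LINC00704 knockdown cells 2.91 RPKM. Among the 38 pathway genes tested in synchronised MIAT knockdown, WDR33 at 0.44 and SMG1 at 0.43 were higher, and LSM4 at -0.58 and CCNE1 at -0.42 were lower.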

How the data were processed

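In all, 10 deposited tables gave the values of 91 of the 96 samples, and the 5 chromatin samples were not analysed here. Per the file headers the deposited values were RPKM. A gene length was given only in the asynchronous knockdown tables and was applied by gene symbol to the others. Per the submitters' processing notes STAR 2.5.3, featureCounts 1.6.1 and edgeR were used with builds hg38 and GRCh38. The sources used here do not give the role of each tool or the strand setting. The deposited gene length matched the whole RefSeq gene span (median ratio 1.0 over 14027 genes). For genes of unique symbol with such a length, every RPKM value checked was a whole multiple of 1 read (tolerance 0.05, counts up to 200). Reads recovered per library were summed over these genes only. The asynchronous knockdown tables also held log2 fold changes and p-values with false discovery rates that the authors deposited. Reads of small RNAs inside CSTF2, ERI1 and MIIP cannot be told apart from those of the gene.

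Differences were tested with limma 3.58.1 (R 4.3.3) after a log2 transform of RPKM + 0.25, for genes of at least 0.5 RPKM in at least 2 libraries, a trended prior, all groups of a table in one fit and Benjamini-Hochberg adjustment over all tested genes, called under 0.05, two-sided. Fold changes on this scale understate those of low genes. Shares of all genes with the same sign over pairs, or without overlap between groups, were not computed. The procedure was tested on simulated data. Replicate numbers paired the libraries in nuclear input, where deviations from the group means correlated at 0.63 to 0.86 in every pair of groups, so values with the replicate number as a block stand beside the unpaired ones there; other tables did not meet this in every pair. Alternatives were other pseudocounts (1 and 0.1), filters, quantile and median scaling, the block and leaving out each library; the blocked fits without a library were chosen after seeing the data. All 9 members were named by rule, with up to 4 passing genes of each of 6 pathway lists and comparison, largest difference first. Some items that this rule covers are not reported here. The members and lists were chosen with earlier results of these data known.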

Additional observations from a re-analysis of the deposited data

How the results depend on the processing

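Counts of members called stayed within 1.5 times the reported count in 445 recomputations and moved in 37, and 0 called results reversed direction. Most reported counts were 0, and a count that stayed at 0 was tallied as unchanged. Every comparison with any member called moved under some alternatives. Of the values of single members, 3737 kept their sign and side of the threshold and 123 changed sign without passing the test in either fit. A further 28 came past the threshold and 103 were lost from it. Quantile or median scaling changed the sign of 12 uncalled member results. With the replicate block in nuclear input the counts became 4 (windows against asynchronous cells), 3 (among windows) and 5 (T8-10 against T0-2), each from 0; leaving out single libraries from these blocked fits, chosen after seeing the data, gave 1 to 4, 0 to 2 and 0 to 5. In MIAT knockdown of asynchronous cells the replicate block gave 3 and lost CSTF2 (limma adjusted p = 0.063), and in the other tables it changed no count from 0. The counts there were 2 without filter, 1 under quantile normalization, 2 under median scaling and 0 to 3 without single libraries. Leaving out single libraries gave 1 to 6 in LUCAT1 knockdown of synchronised cells (1 without either S2 or S6 control, the first knockdown library at S2 or the second at S6; 6 without the second knockdown library at S0), 0 to 4 in asynchronous cells and 0 to 2 in T8-10 against T0-2 of nuclear nascent RNA. Apart from the filter, which changes the genes tested, and the omitted libraries, the cause was not tested. In synchronised knockdown tables the block was run only over the controls (0 members in both comparisons), since the knockdown columns carry no number tied to a sample. Depth limited the low members, with as few as 17 reads of LSM10 and 24 of MIIP in nuclear nascent libraries.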
